A study of Mus musculus with 36 samples.

Results

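The calcium response of GFP-PKP4 Rescue keratinocytes after 72 h was measured as 3 libraries grown in high-calcium medium (HCM) against 3 grown in low-calcium medium (LCM). These 6 of the study's 36 mouse RNA-seq libraries were chosen by their labels alone, and no measured value entered the choice. LCM held 50 µM CaCl2, and HCM was the same medium with 1.2 mM CaCl2 added. The other 30 libraries hold the same 2 media in wild-type (WT), PKP4-KO and Rescue cells at 24 h and 72 h, with 3 libraries in each of the 12 groups.

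Rescue cells were PKP4-KO keratinocytes, isolated from newborn Pkp4-/- pups, that had received human PKP4 with GFP at its N-terminus from a lentivirus and had been kept under puromycin. Both the HCM and the LCM group thus carry the deletion, the selection and a human transgene that is not under the mouse gene's own promoter. WT cells were isolated from newborn mice with an intact Pkp4 gene, and PKP4-KO cells from Pkp4-/- pups. EGF, cholera toxin, hydrocortisone and insulin were present in the medium of all groups. No label ties a replicate number to an animal, a clone or a separate culture, so all p-values given here measure the spread between these libraries, which may be technical.

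Extracellular calcium is low around the basal keratinocytes of the epidermis and rises towards the granular layer. When calcium is raised in culture, cadherins can bind between neighbouring cells, adherens junctions and desmosomes form, and the cells leave the cell cycle and start to differentiate. Basal keratins are then replaced by suprabasal keratins, and later the precursors of the cornified envelope, such as involucrin, loricrin, the small proline-rich (Sprr) proteins and the late cornified envelope (Lce) proteins, are cross-linked by transglutaminases beneath the plasma membrane while lipids are attached outside it. PKP4, also named p0071, is an armadillo protein of cell junctions that is related to the plakophilins and to p120 catenin.

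The transgene was read in every Rescue library. GFP-PKP4 reached 296, 341 and 245 CPM (counts scaled to a common library size) in HCM and 562, 331.8 and 336 CPM in LCM, and its means of 294 ± 48.1 and 410 ± 131 CPM (SD, n = 3 each) were not told apart (exact permutation test, two-sided, p = 0.3, where 0.1 is the smallest p that 3 against 3 libraries allow). CPM are given after TMM normalization throughout, ± after a mean is the SD of 3 libraries, and ± after a log2 difference (HCM minus LCM) is its standard error. Mouse Pkp4 itself lay at 9.47 ± 2.27 CPM in HCM and 8.86 ± 1.30 CPM in LCM (exact permutation test, two-sided, p = 0.9), below the 39.8 ± 4.08 CPM (SD, n = 6) of the WT libraries at 72 h. These mouse reads were 101 to 273 counts per Rescue library, whereas GFP-PKP4 had 4505 to 15325. The GFP-PKP4 sequence also received 0 to 113 counts in the 12 WT and 3 to 112 counts in the 12 PKP4-KO libraries, which carry no transgene.

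The libraries held 15418812 to 22467187 counts (median 18363142.5), so that 3 counts, taken as the floor of detection, equal 0.134 to 0.195 CPM. The floor, like every counting limit here, covers counting error only. Krt14, a keratin of basal keratinocytes, lay between 13962 and 22775 CPM in all 6 libraries, and Trp63, the transcription factor that sets the keratinocyte lineage, at 98.9, 106 and 112 CPM in HCM and 199.8, 98.8 and 161 CPM in LCM. Markers of other cell types moved in both directions. The summed CPM in HCM and LCM libraries was 4.87 to 6.67 and 0.221 to 9.23 for 9 fibroblast markers (Dpt at 0), 4.32 to 6.86 and 2.06 to 4.25 for 8 melanocyte markers (Tyr at 0), and 4.85 to 7.09 and 2.80 to 3.30 for 6 endothelial markers. It was 66.9 to 73.6 and 82.4 to 179 for 9 immune cell markers (Cd207 at 0), 21.3 to 29.6 and 73.3 to 135 for 7 muscle markers (Myod1 at 0), 38.0 to 42.0 and 26.6 to 42.9 for 6 Merkel cell markers (Atoh1 and Piezo2 at 0), and 39.5 to 43.2 and 24.1 to 30.3 for 9 markers of simple epithelium (Cdx1 at 0). Of the 25 of these markers that passed the filter on low counts, 5 were called higher and 3 lower in HCM, with edgeR's test described below. Their part in the results was not tested. Since these are bulk RNA samples, fewer cells of a state and less RNA per cell cannot be told apart in any value below.

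LCM replicate 2 stood apart from the others. Its log2 CPM correlated with LCM replicates 1 and 3 at 0.943 and 0.963 across genes, which are not independent replicates, while all other pairs of the same Rescue 72 h group reached at least 0.990. In that library the median gene shorter than 1 kb lay 0.506 above, and the median gene longer than 8 kb 0.352 below, the mean of the 6 libraries on the log2 scale. The same medians lay between -0.246 and 0.128 in the other 5 libraries. Counts of calls are therefore also given as the number that held when each of the 6 libraries in turn was left out.

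Of 55358 genes in the count table, 15114 passed the filter on low counts, and 3769 of them (24.9%) differed between HCM and LCM at an adjusted p below 0.05 (edgeR quasi-likelihood test, Benjamini-Hochberg). Of these, 1961 (13% of the genes tested) were higher and 1808 (12%) lower in HCM, and the difference was at least 2-fold for 1037 and 589 genes. The split depends on scaling, since without TMM every log2 difference moves up by 0.15 and 1709 genes were higher and 993 lower. The median log2 difference of all genes tested was -0.01 with TMM. The HCM and LCM libraries did not overlap for 6187 of the genes tested (40.9%), with HCM above LCM for 21.9% and below for 19%. Leaving out each library in turn, 2029 calls held in all 6 fits, 1059 of them higher and 970 lower. Without LCM replicate 2, 2780 genes were called, and 2552 of the 3769 genes were called in the same direction and 0 in the opposite one. The median log2 difference of each gene list below should be read beside this median of all genes, and the counts called beside the 13% and 12%. Counts in the other settings have their own shares. In WT cells at 72 h 10.6% of the genes tested were called higher and 10.8% lower. In PKP4-KO cells at 72 h these shares were 12.9% and 19.7%, and in Rescue cells at 24 h 6% and 5.96%. A list's count of 0 is from edgeR and is followed in brackets by the list's count at an unadjusted p below 0.05 and by that of DESeq2. Every gene written of as higher or lower passed the adjusted p of 0.05 with all 6 libraries.

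Most suprabasal keratins tested and all Lce1 and Lce3 genes tested, which encode late envelope proteins, were higher in HCM. Krt10, a suprabasal keratin of the first differentiated layers, was read at 504, 468 and 298 CPM in HCM and 12.5, 14.2 and 11.4 CPM in LCM. All 3 HCM libraries lay more than 20 times above every LCM library, and the log2 difference was 5.06 ± 0.45 (edgeR adjusted p = 2.1e-09). Its partner Krt1 lay at 17.8, 18.1 and 17.5 CPM in HCM and 3.99, 3.09 and 3.31 CPM in LCM and had a log2 difference of 2.35 ± 0.50 (edgeR adjusted p = 8.8e-04), again without overlap. Krt4, a keratin of stratified mucosa, and Krt80, a keratin found near desmosomes of differentiated cells, were also higher, by 1.42 ± 0.25 and 1.0 ± 0.17 (edgeR adjusted p = 1.1e-04 and 4.5e-05). Of 7 suprabasal keratins tested, 4 were called higher and 1, Krt78, lower, and the 4 higher calls held in all 6 fits, whereas that of Krt78 (log2 difference -1.23 ± 0.34, edgeR adjusted p = 0.0076) was lost without LCM replicate 2 (log2 difference -0.96, edgeR adjusted p = 0.061). In WT cells at 72 h 6 of the 7 were called higher. The response in Rescue cells was called lower than in WT for 4 and higher for 0 [0, 0]. Against PKP4-KO cells at 72 h 3 were lower and 1 higher, and against Rescue cells at 24 h 4 and 1.

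**Figure D1:**
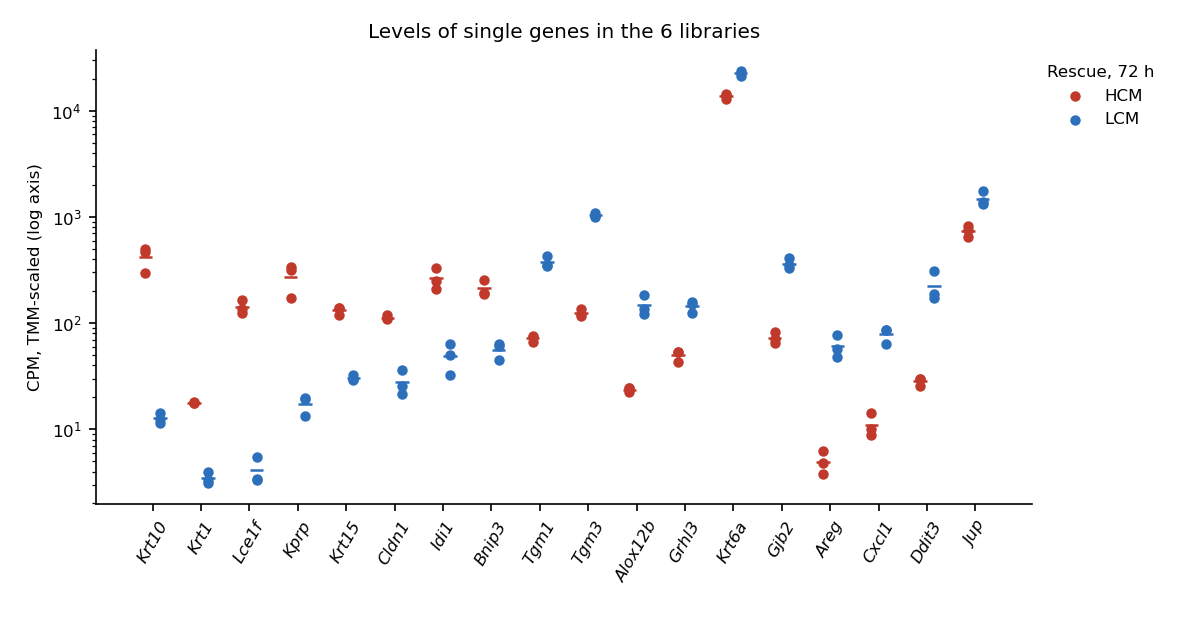
CPM in each of the 3 HCM (red) and 3 LCM (blue) libraries of Rescue cells at 72 h for 18 genes, on log axes, with a line at each group's mean. Krt10, Lce1f, Cldn1 and Idi1 lie higher and Tgm1, Tgm3, Alox12b, Areg and Cxcl1 lower in all HCM libraries than in any LCM library.

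Of 53 genes of the cornified envelope, 28 were called higher and 2 lower, with a median log2 difference of 1.11. Leaving out each library in turn, 24 of the higher calls and 0 of the lower calls held, and without LCM replicate 2 the counts were 31 and 1. The higher calls came mainly from the Lce genes, which encode small cysteine- and glycine-rich proteins deposited late in cornification. All 14 Lce1 genes tested were called higher, by 3.01 to 5.81 on the log2 scale (median 4.46). Their single libraries ranged from 0.420 to 12.2 CPM in LCM and from 12.7 to 261 CPM in HCM. Lce1f, for example, was read at 164, 136 and 125 CPM in HCM and 3.41, 5.52 and 3.36 CPM in LCM, a log2 difference of 5.13 ± 0.31 (edgeR adjusted p = 4.0e-12). Lce1h was read at 43.3, 34.5 and 32.5 CPM in HCM and 0.660, 1.03 and 0.577 CPM in LCM, a log2 difference of 5.63 ± 0.58 (edgeR adjusted p = 3.0e-08). Every HCM library of both genes lay above every LCM library. Lce1k, at 15.6, 15 and 12.7 CPM in HCM and 0.770, 2.95 and 0.525 CPM in LCM, had a log2 difference of 3.41 ± 0.53 with all libraries and of 4.44 without LCM replicate 2. All 6 Lce3 genes were called higher too, by 1.39 to 3.41 (median 2.52), although the call of Lce3b was lost without LCM replicate 1 or 3 (lowest log2 difference 1.14). Lce1 genes are near-identical copies of each other, so reads may be divided among them with error, and the single-gene values are less certain than the family's. Of the 53 envelope genes, 46 were called higher in WT cells at 72 h (median 3.53). The response in Rescue cells was called lower than in WT for 24 and higher for 2, against 7.77% and 6.81% of all genes tested. Without LCM replicate 2 these counts were 17 and 2. Against PKP4-KO cells at 72 h 19 were lower and 16 higher, and against Rescue cells at 24 h 8 and 9.

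Both families lie on mouse chromosome 3, in the epidermal differentiation complex, together with the Sprr genes, Ivl and Lor. The GENCODE M39 annotation of GRCm39 was matched to the gene identifiers of the count table for 15073 of the 15114 genes (99.7%). By it, the Lce1 genes covered 372.5 kb from the lowest to the highest coordinate of any member. The Lce3 genes covered 68.1 kb, within the Lce1 stretch, and the Sprr genes 284.7 kb. The families of this stretch had different values. Of 16 Sprr genes, 4 were called higher and 1 lower (median 0.60), compared with 14 of 14 for Lce1. In WT cells at 72 h the median Sprr gene differed by 3.18 between the media and the median Lce1 gene by 4.60.

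**Figure D2:**
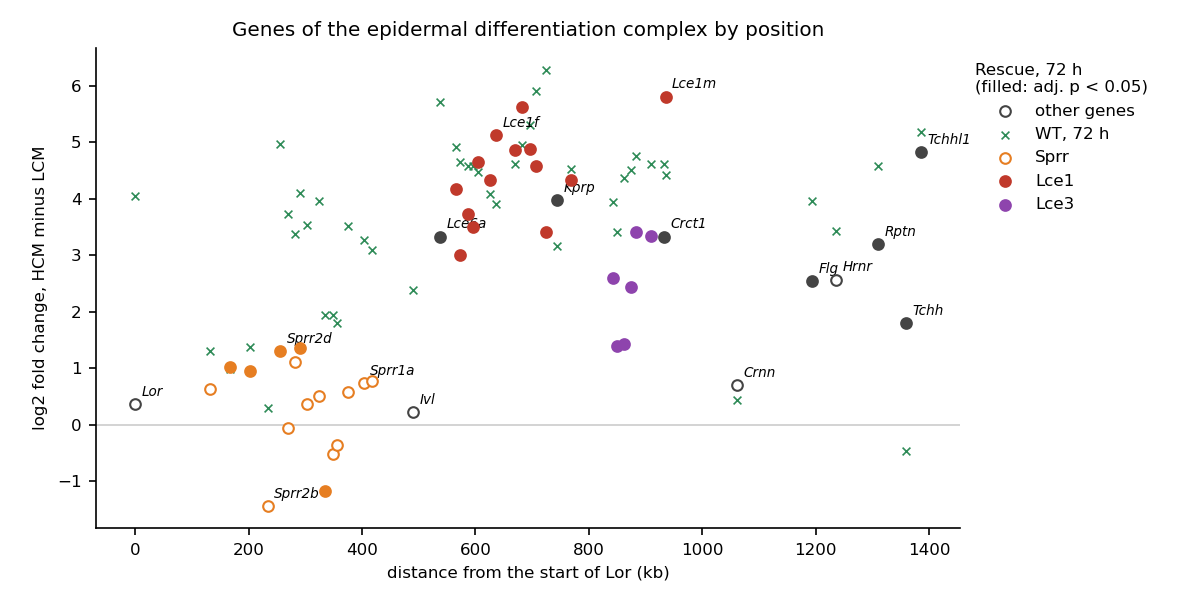
Log2 difference (HCM minus LCM) of genes of the epidermal differentiation complex in Rescue cells at 72 h against the distance of their start from that of Lor, in kb, with filled points for called genes and green crosses for WT cells at 72 h. The 14 Lce1 genes lie between 3.01 and 5.81, whereas the 16 Sprr genes lie between -1.44 and 1.35.

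Sprr1a and Sprr2d show how near the Sprr values were to the spread. Sprr1a, an envelope precursor induced early in differentiation, was read at 9603, 8256 and 8301 CPM in HCM and 3329, 8246 and 4188 CPM in LCM. Its log2 difference of 0.73 ± 0.32 (edgeR adjusted p = 0.092) was not called, while without LCM replicate 2 it was called at 1.21 (edgeR adjusted p = 0.0094). Sprr2d was read at 3463, 3210 and 3584 CPM in HCM and 764, 2347 and 1034 CPM in LCM, with 1.31 ± 0.47 (edgeR adjusted p = 0.04) in all libraries and 1.92 without LCM replicate 2. In both genes LCM replicate 2 lay above the other LCM libraries. Ivl, the scaffold precursor involucrin, was at 72.5, 83.2 and 122 CPM in HCM and 84.3, 62.8 and 91.4 CPM in LCM. Lor, the bulk component loricrin, was at 94.2, 91.6 and 55.3 CPM in HCM and 66.0, 66.1 and 55.6 CPM in LCM. The log2 difference of Ivl was 0.22 ± 0.26 (edgeR adjusted p = 0.57), with a 95% interval from -0.32 to 0.76. That of Lor was 0.36 ± 0.35 (edgeR adjusted p = 0.46), with a 95% interval from -0.35 to 1.08. The HCM and LCM libraries of these classical markers overlapped and were not told apart.

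The 300 bases upstream of the start of each gene were searched for TGACTCA or its reverse complement TGAGTCA, the binding motif of AP-1. It was present in 649 of 15073 promoters (4.31%), in 5.62% of those of genes called higher, in 4.81% of those called lower, and in 12 of the 53 cornified envelope promoters (22.6%). None of the 14 Lce1 promoters held it. Of the 12 envelope genes with the motif, which include Ivl, Lor, Sprr1a and 8 Sprr2 genes, 2 were called higher in Rescue cells (median 0.37), against 10 in WT cells at 72 h (median 3.45). Of the 41 without it, 26 were called higher and 2 lower in Rescue cells (median 2.45), against 36 higher in WT cells (median 3.67). This split is also one by gene family, since the 12 are mainly Sprr genes and the 41 hold the Lce1 and Lce3 genes of the list. Members of a family are related copies, and the part of the motif was not tested. The motif of TEAD factors, GGAATG, was searched in the same 300 bases on both strands. It was in 6 of the 14 Lce1 promoters (42.9%) and in 14% of all promoters. The motifs of GRHL and E2F factors and the CArG box of SRF were in 0 of the 14. The Lce1 promoters also shared 2 words, which were picked after the sequences had been seen and searched on the gene's strand in the last 150 bases. ATAAAAGG, a TATA-box-like word, was in 11 of 14 promoters and 0.451% of all, 25 to 29 bases before the start of the gene. CTGTCTCA was in 10 of 14 and 0.464% of all, 52 to 67 bases before it. A match of letters describes the window and is no evidence of binding. The stretches that end at the start of 7 Lce1 genes, all read on the minus strand of GRCm39, are given here because these genes rose together, with the shared words in capitals.
Lce1d, chr3:92594518-92594617, minus strand: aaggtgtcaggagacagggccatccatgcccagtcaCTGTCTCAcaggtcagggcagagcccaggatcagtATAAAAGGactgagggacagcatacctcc
Lce1e, chr3:92616382-92616481, minus strand: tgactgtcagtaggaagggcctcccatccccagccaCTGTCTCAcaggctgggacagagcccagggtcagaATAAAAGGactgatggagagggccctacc
Lce1f, chr3:92627658-92627757, minus strand: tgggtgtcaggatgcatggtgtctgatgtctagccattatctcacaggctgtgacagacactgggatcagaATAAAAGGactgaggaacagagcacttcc
Lce1g, chr3:92659646-92659745, minus strand: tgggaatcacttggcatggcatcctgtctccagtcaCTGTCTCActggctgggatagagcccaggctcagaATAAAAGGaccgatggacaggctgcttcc
Lce1h, chr3:92672373-92672472, minus strand: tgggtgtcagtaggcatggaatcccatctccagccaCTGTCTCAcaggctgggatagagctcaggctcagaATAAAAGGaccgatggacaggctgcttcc
Lce1i, chr3:92686211-92686310, minus strand: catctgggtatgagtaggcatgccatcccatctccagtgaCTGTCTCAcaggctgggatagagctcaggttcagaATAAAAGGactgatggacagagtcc
Lce1m, chr3:92926368-92926467, minus strand: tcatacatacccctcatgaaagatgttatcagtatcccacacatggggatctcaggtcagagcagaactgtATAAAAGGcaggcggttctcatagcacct

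The corresponding stretches of 4 envelope genes that were not called in Rescue cells, or only weakly so, are shown too, with the AP-1 motif in capitals.
Sprr1a, chr3:92393209-92393348, minus strand: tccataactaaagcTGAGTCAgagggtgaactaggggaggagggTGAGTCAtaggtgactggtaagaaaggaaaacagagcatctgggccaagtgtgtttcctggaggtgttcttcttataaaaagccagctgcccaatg
Sprr2d, chr3:92246247-92246446, plus strand: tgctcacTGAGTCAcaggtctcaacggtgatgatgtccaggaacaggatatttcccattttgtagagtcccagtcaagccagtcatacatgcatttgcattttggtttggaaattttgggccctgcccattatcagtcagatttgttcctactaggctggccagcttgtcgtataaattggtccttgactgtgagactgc
Ivl, chr3:92481043-92481172, minus strand: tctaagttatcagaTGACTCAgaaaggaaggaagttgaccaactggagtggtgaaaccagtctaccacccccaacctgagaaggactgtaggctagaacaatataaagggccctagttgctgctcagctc
Lor, chr3:91990450-91990549, minus strand: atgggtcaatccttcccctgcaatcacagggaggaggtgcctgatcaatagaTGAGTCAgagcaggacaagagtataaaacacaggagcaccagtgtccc

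Other envelope genes that were called higher were Kprp, the keratinocyte proline-rich protein, at 336, 314 and 174 CPM in HCM and 19.5, 19.5 and 13.4 CPM in LCM (log2 difference 3.98 ± 0.30, edgeR adjusted p = 2.2e-10). They also included 3 members of the fused S100 family that bind keratin filaments, namely Flg (filaggrin), Rptn (repetin) and Tchh (trichohyalin), with log2 differences of 2.54 ± 0.68, 3.20 ± 0.63 and 1.80 ± 0.44 (edgeR adjusted p = 0.0069, 3.6e-04 and 0.0029). Cdsn, the adhesive protein corneodesmosin, lay at 1068, 1038 and 831 CPM in HCM and 488, 556 and 428 CPM in LCM and had a log2 difference of 1.0 ± 0.20 (edgeR adjusted p = 3.9e-04). The 2 lower calls were the stefins Stfa2 and Csta2, inhibitors of cysteine proteases. Stfa2 lay at 6.86, 7.13 and 12.8 CPM in HCM and 28.7, 266 and 57.5 CPM in LCM, with a log2 difference of -3.71 ± 0.92 (edgeR adjusted p = 0.0035), and Csta2 at 0.324, 0.117 and 0.571 CPM in HCM and 0.403, 7.58 and 1.42 CPM in LCM, with one of -3.18 ± 1.02 (edgeR adjusted p = 0.022). In both, LCM replicate 2 was far above all other libraries, and both calls were lost without it, Stfa2 then having a log2 difference of -2.27 (edgeR adjusted p = 0.064). The stefins are near-identical copies of each other, and their values are uncertain for that reason too.

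Several enzymes that assemble the envelope and its lipids were lower, while others were higher or not called. Tgm1, the membrane-bound transglutaminase that cross-links envelope precursors, was read at 74.5, 75.4 and 67.0 CPM in HCM and 342, 427 and 349 CPM in LCM. Its log2 difference was -2.37 ± 0.21 (edgeR adjusted p = 2.1e-09). Tgm3, which cross-links loricrin and small proline-rich proteins, lay at 122, 135 and 117 CPM in HCM and 1026, 999.8 and 1085 CPM in LCM. Its log2 difference was -3.06 ± 0.20 (edgeR adjusted p = 2.1e-11). The HCM libraries of both genes lay below every LCM library. Tgm5, a further epidermal transglutaminase, had a log2 difference of -1.33 ± 0.18 (edgeR adjusted p = 2.0e-06). Alox12b, the 12R-lipoxygenase that starts the oxidation of acylceramides, was at 24.2, 24.5 and 22.3 CPM in HCM and 134, 184 and 123 CPM in LCM (log2 difference -2.63 ± 0.28, edgeR adjusted p = 4.8e-08). Aloxe3, the enzyme acting next, was lower, with a log2 difference of -0.98 ± 0.20 (edgeR adjusted p = 5.0e-04). Cyp4f39, a fatty acid omega-hydroxylase, Smpd1, an acid sphingomyelinase, and Nipal4, a transporter-like protein mutated in ichthyosis, were also lower, with log2 differences of -0.98, -0.69 and -0.51. In the opposite direction, the epidermal lipases Lipk and Lipm were higher by log2 differences of 1.86 ± 0.25 and 1.21 ± 0.25 (edgeR adjusted p = 1.8e-06 and 6.2e-04).

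Of the 30 tested genes for barrier lipids and transglutaminases, 5 were called higher and 9 lower (median -0.09), of which 2 and 8 held in all 6 fits, and without LCM replicate 2 the counts were 2 and 9. The median lies within the 0.15 by which scaling moves all genes, so no direction is given for the list as a whole, nor for 8 other lists whose medians cross 0 with that shift. In WT cells at 72 h 21 of the 30 were called higher and 1 lower, in PKP4-KO cells at 72 h 25 and 0 [0, 0], and in Rescue cells at 24 h 24 and 0 [0, 0]. The difference between the responses was itself tested, and 18, 20 and 18 of the 30 were called lower in Rescue cells at 72 h than in WT at 72 h, PKP4-KO at 72 h and Rescue at 24 h, with 0 [0, 0], 0 [0, 0] and 0 [0, 0] called higher. The 3 counts were 18, 18 and 16 without LCM replicate 2. For all genes tested, these 3 differences were called lower for 7.77%, 13.4% and 6.21%.

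Transcription factors of keratinocyte fate were lower in HCM more often than higher. The list is not limited to factors that drive differentiation and also holds the inhibitors Id1 and Id3. Of 33 tested, 14 were called lower and 4 higher (median -0.53), and 13 of the lower but 1 of the higher calls held in all 6 fits. Grhl3, which is required for the barrier and for Tgm1 expression, was at 53.4, 53.2 and 42.7 CPM in HCM and 158, 124 and 152 CPM in LCM. Dlx3, a homeobox factor of the granular layer, was at 0.185, 0.234 and 0.143 CPM in HCM and 0.696, 1.03 and 1.63 CPM in LCM. Their log2 differences were -1.54 ± 0.20 (edgeR adjusted p = 1.0e-06) and -2.51 ± 0.61 (edgeR adjusted p = 0.0033), and neither gene's groups overlapped. The HCM values of Dlx3 lie near the floor of 3 counts, so its log2 difference is imprecise. Ovol1, a zinc-finger factor that limits proliferation, and Zfp750, a target of p63 needed for late differentiation, were lower, with log2 differences of -1.55 ± 0.16 and -1.22 ± 0.15 (edgeR adjusted p = 2.1e-08 and 3.9e-07). The inhibitors of bHLH factors Id1 and Id3 were lower, with log2 differences of -1.56 and -2.52, and Klf5, Tfap2c and Ppard with -1.19, -1.12 and -1.23. Prdm1, a transcriptional repressor found in cells that cornify, was the higher call that held (31.4, 34.5 and 21.6 CPM in HCM and 14.5, 9.72 and 10.9 CPM in LCM, 1.31 ± 0.34, edgeR adjusted p = 0.0056). Relative to LCM, the same HCM libraries were thus higher in Krt10 and Lce1 transcripts and lower in those of Grhl3 and Ovol1.

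Kallikreins and their inhibitors, which control the shedding of corneocytes, were called higher more often than lower. Of 21 tested, 10 were called higher and 1 lower (median 0.67), and 7 of the higher calls held in all 6 fits. Klk6, a trypsin-like kallikrein, rose from 9.60, 17.1 and 10.2 CPM in LCM to 202, 158 and 207 CPM in HCM (log2 difference 3.95 ± 0.45, edgeR adjusted p = 1.5e-07). Klk7, a chymotrypsin-like protease that cleaves corneodesmosin, was at 387, 374 and 351 CPM in HCM and 127, 176 and 94.8 CPM in LCM (log2 difference 1.48 ± 0.29, edgeR adjusted p = 3.8e-04). The inhibitors Slpi, Serpinb3b and Serpinb12 were higher by log2 differences of 1.54 ± 0.32, 1.66 ± 0.34 and 2.09 ± 0.47 (edgeR adjusted p = 6.7e-04, 5.5e-04 and 0.0013). The median log2 difference of 12 S100 genes was -0.44, and it was 0.79 without LCM replicate 2. Of these 12, 2 were called higher and 0 [1, 0] lower: S100a7a, an antimicrobial S100 protein, by 1.97 ± 0.35 and S100a3 by 0.99 ± 0.26 (edgeR adjusted p = 1.3e-04 and 0.0048).

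**Figure D3:**
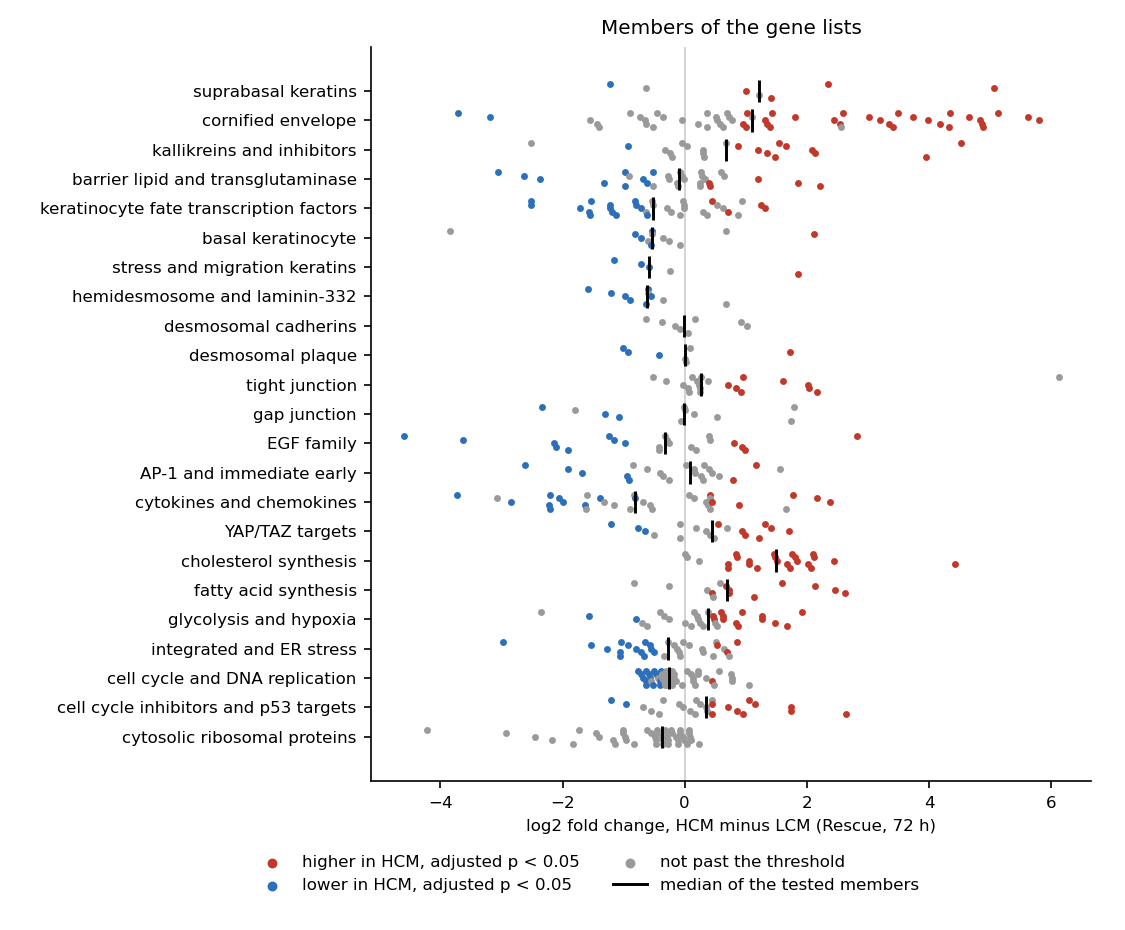
Log2 difference (HCM minus LCM) of each tested member of 23 gene lists in Rescue cells at 72 h, in red or blue where called higher or lower, in grey where not called, with a black bar at the list's median. The medians run from 1.5 for cholesterol synthesis and 1.11 for the cornified envelope to -0.62 for the hemidesmosome and -0.81 for cytokines.

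Basal keratinocyte genes were lower in part. Krt5, the basal type II keratin, lay at 8936, 9286 and 7624 CPM in HCM and 12082, 15997 and 14108 CPM in LCM, and its log2 difference was -0.71 ± 0.18 (edgeR adjusted p = 0.0045). Its partner Krt14 had a log2 difference of -0.54 ± 0.15 (edgeR adjusted p = 0.0085), that is, both stayed abundant and fell by less than 2-fold. Col17a1, the transmembrane collagen of hemidesmosomes, and Cd44, the hyaluronan receptor, were lower, with log2 differences of -0.55 ± 0.13 and -0.81 ± 0.17 (edgeR adjusted p = 0.0022 and 9.4e-04). Krt15, a basal keratin associated with stem cells, went the other way, at 139, 140.2 and 118 CPM in HCM and 32.2, 29.4 and 29.8 CPM in LCM (log2 difference 2.12 ± 0.26, edgeR adjusted p = 4.7e-07), with no overlap. In all, 4 of 12 basal genes were called lower and 1 higher (median -0.54), and these calls held in all 6 fits.

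Keratins that keratinocytes make in wounds and under stress were mainly lower. Krt6a lay at 14058, 14320 and 12780 CPM in HCM and 21261, 22700 and 23692 CPM in LCM, Krt16 and Krt17 had log2 differences of -0.59 ± 0.16 and -1.16 ± 0.15, and that of Krt6a itself was -0.72 ± 0.13 (edgeR adjusted p = 1.0e-04). Krt75, a companion-layer keratin, was higher by a log2 difference of 1.85 ± 0.32. Of these 5 keratins 3 were called lower and 1 higher, while in WT and PKP4-KO cells at 72 h and Rescue cells at 24 h 3, 5 and 4 were called higher and 0 [0, 0], 0 [0, 0] and 0 [0, 0] lower. The difference between the responses was called lower for 4 of 5 in each of the 3 tests. Krt6a and Krt6b, and Krt14, Krt16 and Krt17, are close paralogs among which reads can be misplaced. The keratins of simple epithelium Krt7 (log2 difference 1.84 ± 0.22) and Krt23 (log2 difference 1.29 ± 0.31) were higher, as was Krt19 (log2 difference 1.39 ± 0.40), whose call was lost without LCM replicate 3, and 0 [0, 0] of the 6 in that list were lower.

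Genes of the hemidesmosome and laminin-332, which anchor cells to the basement membrane, were called lower in most cases, whereas the other adhesion and matrix lists gave calls in both directions. Lama3, a chain of laminin-332 in the basement membrane, was at 44.1, 46.3 and 35.5 CPM in HCM and 136, 112 and 129.6 CPM in LCM. Its log2 difference was -1.59 ± 0.20 (edgeR adjusted p = 7.1e-07), and every HCM library lay below the LCM libraries. Plec, the linker plectin, and Col7a1, the collagen of anchoring fibrils, were lower, with log2 differences of -0.97 ± 0.14 and -0.90 ± 0.23 (edgeR adjusted p = 5.6e-06 and 0.0048). Of 10 genes of the hemidesmosome and laminin-332, 7 were called lower and 0 [1, 0] higher (median -0.62), and 5 of the lower calls held in all 6 fits. WT and PKP4-KO cells at 72 h and Rescue cells at 24 h had 6, 9 and 5 lower, and the differences from WT and PKP4-KO were called higher for 1 gene each and lower for 1 and 2. Of 9 integrins 1 was called higher and 1 lower, of which the lower call held, and 0 and 2 were called without LCM replicate 2. Of 22 focal adhesion adaptors 4 were higher and 7 lower (3 and 6 held), with Vcl, the actin linker vinculin, higher at 53.6, 47.6 and 44.2 CPM in HCM and 28.5, 20.4 and 24.2 CPM in LCM (log2 difference 0.99 ± 0.18, edgeR adjusted p = 1.7e-04) and the tensin Tns3 higher by a log2 difference of 1.37 ± 0.24. Of 18 collagens 3 were higher and 4 lower (2 and 3 held, and 2 and 6 were called without LCM replicate 2).

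Desmosomal cadherins gave no call, and genes of the desmosomal plaque moved in both directions. Of 8 desmosomal cadherins, the adhesion molecules of desmosomes, 0 [1, 1] were called higher and 0 [0, 0] lower, whereas 6 of 8 were called higher in Rescue cells at 24 h. Dsg3, which is typical of basal cells, was read at 209, 214 and 217 CPM in HCM and 360.2, 188 and 283 CPM in LCM. Dsc2 was read at 17.0, 18.3 and 24.5 CPM in HCM and 33.5, 16.1 and 16.5 CPM in LCM. The libraries of both overlapped, and the log2 differences were -0.38 ± 0.26 (edgeR adjusted p = 0.3) and -0.15 ± 0.36 (edgeR adjusted p = 0.79). Of 7 plaque genes 1 was higher and 3 were lower (1 and 2 held). Jup, the plaque protein plakoglobin, lay at 758, 817 and 646 CPM in HCM and 1376, 1759 and 1324 CPM in LCM. Pkp1, plakophilin 1, lay at 1348, 1435 and 1166 CPM in HCM and 2635, 2533 and 2314 CPM in LCM. Both were lower, with log2 differences of -1.01 ± 0.20 (edgeR adjusted p = 3.4e-04) and -0.92 ± 0.12 (edgeR adjusted p = 8.0e-07). Pkp2, a plakophilin more typical of simple epithelia and heart, was higher, at 8.02, 7.94 and 6.75 CPM in HCM and 3.04, 1.55 and 2.20 CPM in LCM (log2 difference 1.72 ± 0.38, edgeR adjusted p = 0.0011).

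Adherens junction genes gave 2 higher calls and 1 lower among 16, all of which held. They were Vcl, Vezt (log2 difference 1.08 ± 0.17), which binds the cadherin-catenin complex, and, lower, the immunoglobulin-like adhesion molecule Nectin1 (log2 difference -0.58 ± 0.13). Tight junction genes were called higher for 8 of 21 and lower for 0 [0, 0] (median 0.26), and 6 of the calls held. Cldn1, the claudin that seals the granular layer, was at 111, 108 and 119 CPM in HCM and 36.2, 21.7 and 25.7 CPM in LCM (log2 difference 2.02 ± 0.19, edgeR adjusted p = 7.4e-09), without overlap. Marveld3 and Magi3 were higher by log2 differences of 2.16 ± 0.48 and 2.03 ± 0.43, and Cgn and Cldn23 by 0.92 ± 0.23 and 0.96 ± 0.29. Of 11 connexins 3 were called lower, all of which held, and 0 [0, 0] higher. Gjb2, connexin 26, was at 70.3, 65.3 and 81.8 CPM in HCM and 331, 408 and 352 CPM in LCM (log2 difference -2.33 ± 0.21, edgeR adjusted p = 3.2e-09), and Gjb5 was lower too, with a log2 difference of -1.07.

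Several ligands of the EGF receptor and targets of the ERK pathway were lower. Areg, amphiregulin, lay at 4.77, 3.82 and 6.18 CPM in HCM and 56.9, 47.6 and 78.1 CPM in LCM and had a log2 difference of -3.63 ± 0.29 (edgeR adjusted p = 4.1e-10). Hbegf, a ligand released in wounds, was at 12.8, 15.1 and 17.1 CPM in HCM and 72.3, 55.8 and 70.4 CPM in LCM (log2 difference -2.14 ± 0.20, edgeR adjusted p = 7.8e-09). Epgn, epigen, was at 24.9, 32.2 and 42.5 CPM in HCM and 158, 115 and 154 CPM in LCM (log2 difference -2.10 ± 0.23, edgeR adjusted p = 1.2e-07). In all 3 ligands each HCM library was below each LCM library. Of the targets and feedback genes of the ERK pathway, Etv4, Etv5 and Dusp6 were lower, with log2 differences of -0.97 ± 0.27, -1.90 ± 0.23 and -1.24 ± 0.21, whereas the phosphatase Dusp4 was higher by a log2 difference of 2.82 ± 0.35 (edgeR adjusted p = 0.0094, 5.7e-07, 5.8e-05 and 6.2e-07). The receptors Egfr and Erbb3 were higher by log2 differences of 0.93 ± 0.19 and 0.80 ± 0.16 (edgeR adjusted p = 4.0e-04 and 4.8e-04). Of 21 genes of the family 4 were called higher and 8 lower (median -0.32), and 3 and 8 held. In WT cells at 72 h 13 of the 21 were called higher and 0 [1, 0] lower, and the difference between the responses was called lower for 11 and higher for 0 [3, 1]. PKP4-KO cells at 72 h had 5 called higher and 8 lower, and Rescue cells at 24 h 5 and 5. The difference from PKP4-KO was called higher for 5 and lower for 4, and that from 24 h higher for 2 and lower for 6.

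Among 22 AP-1 and immediate early genes 2 were called higher and 5 lower, of which 2 and 4 held. Fos lay at 5.51, 5.80 and 4.47 CPM in HCM and 35.9, 23.3 and 37.9 CPM in LCM (log2 difference -2.62 ± 0.28, edgeR adjusted p = 5.4e-08). Fosl1, which encodes FRA-1, was at 29.7, 30.1 and 25.9 CPM in HCM and 76.6, 158 and 86.7 CPM in LCM (log2 difference -1.91 ± 0.28, edgeR adjusted p = 8.5e-06). Junb and Ier2 were lower, with log2 differences of -0.91 and -0.94.

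Cytokines and chemokines had the lowest median among the lists by role (-0.81 over 33 genes), with 10 called lower and 6 higher, of which 10 and 4 held. Cxcl1, a neutrophil chemokine, was at 10.1, 8.92 and 14.2 CPM in HCM and 64.1, 87.0 and 86.7 CPM in LCM (log2 difference -2.84 ± 0.27, edgeR adjusted p = 5.6e-09). Csf3, the granulocyte growth factor G-CSF, was at 2.46, 2.65 and 4.47 CPM in HCM and 34.0, 46.0 and 47.4 CPM in LCM (log2 difference -3.73 ± 0.27, edgeR adjusted p = 1.1e-10). Every HCM library of both genes lay far below every LCM library. The alarmins Il33 and Tslp were lower, with log2 differences of -2.21 ± 0.23 and -2.20 ± 0.33, Cxcl3 and Cxcl5 with -2.20 ± 0.32 and -1.38 ± 0.26, and Il24 and Il36a with -1.62 ± 0.23 and -2.06 ± 0.40. The higher calls included Ccl2, a monocyte chemokine, at 2.50, 2.80 and 1.62 CPM in HCM and 0.403, 0.442 and 0.472 CPM in LCM (log2 difference 2.38 ± 0.50, edgeR adjusted p = 7.7e-04), and the defensin Defb1 (log2 difference 1.77 ± 0.22, edgeR adjusted p = 6.1e-07). In WT cells at 72 h 18 genes of the list were called higher and 1 lower, and the difference was called lower in Rescue cells for 22 of 33 and higher for 0 [0, 0]. That count was 17 without LCM replicate 2. Of 14 interferon-stimulated genes 1 was higher and 1 lower, of which the lower call held.

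Most transcripts of sterol synthesis rose. Of 24 genes of the cholesterol pathway 21 were called higher and 0 [0, 0] lower (median 1.5), and 20 of the calls held in all 6 fits. Idi1, which isomerizes isopentenyl pyrophosphate, was at 210.0, 252 and 334 CPM in HCM and 63.0, 32.3 and 50.6 CPM in LCM (log2 difference 2.45 ± 0.29, edgeR adjusted p = 2.9e-07). Insig1, the sterol-regulated anchor of SCAP, was at 77.8, 84.3 and 77.1 CPM in HCM and 25.3, 12.4 and 19.1 CPM in LCM (log2 difference 2.07 ± 0.24, edgeR adjusted p = 1.9e-07). Neither gene's libraries overlapped between the media. Hmgcs1, Cyp51, Sc5d and Stard4 were higher by log2 differences of 1.83, 1.81, 1.75 and 2.12, while Dhcr7 was not called (log2 difference 0.00 ± 0.22). The list was also higher in WT and PKP4-KO cells at 72 h, with 23 and 21 of 24 called. The difference from WT was called higher for 0 [1, 0] and lower for 5 genes.

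Fatty acid synthesis gave 9 higher and 0 [0, 0] lower of 14 (median 0.70), and 8 held. Scd1, the desaturase of saturated acyl chains, was at 16.9, 13.2 and 12.6 CPM in HCM and 2.38, 2.06 and 2.41 CPM in LCM (log2 difference 2.63 ± 0.59, edgeR adjusted p = 0.0014). Elovl6, an elongase, and Acss2, an acetyl-CoA synthetase, were higher by log2 differences of 2.46 ± 0.38 and 2.14 ± 0.18 (edgeR adjusted p = 1.5e-05 and 8.0e-10). The response was called higher than in Rescue cells at 24 h for 8 of the 14 and lower for 0 [0, 0]. It was called higher than in PKP4-KO cells at 72 h for 6 and than in WT cells at 72 h for 1. For all genes tested, these differences were called higher for 6.34%, 18.1% and 6.81%. The counts against Rescue cells at 24 h and PKP4-KO cells were 5 and 3 without LCM replicate 2.

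Of 31 genes of glycolysis and the response to hypoxia, 13 were called higher and 2 lower (median 0.39), and 11 and 2 held. Bnip3 and Bnip3l, mitophagy receptors that HIF-1 induces, were at 192, 257 and 189.8 CPM in HCM and 60.2, 45.0 and 64.0 CPM in LCM and at 403, 414 and 408 CPM in HCM and 141, 115 and 128 CPM in LCM. Their log2 differences were 1.92 ± 0.24 (edgeR adjusted p = 7.6e-07) and 1.67 ± 0.13 (edgeR adjusted p = 3.7e-10). Pdk1, which limits pyruvate oxidation, Pgk1 and Ldha were higher by log2 differences of 1.27 ± 0.19, 0.88 ± 0.14 and 0.63 ± 0.13, and Hk2 and Ndrg1 lower, with log2 differences of -1.56 ± 0.14 and -0.79 ± 0.17. The difference was called higher than in WT for 7 genes, than in PKP4-KO for 14 and than at 24 h for 10, and lower for 3, 1 and 2. The higher counts were 4, 15 and 8 without LCM replicate 2. Of 45 cytosolic ribosomal proteins 0 [0, 0] were called higher and 0 [0, 0] lower (median -0.36, and 0.12 without LCM replicate 2). Of 43 nuclear-encoded subunits of oxidative phosphorylation 5 were lower and 0 [0, 0] higher, and the lower calls did not hold in all 6 fits. Without LCM replicate 2 the count of lower calls among the latter was 2. LCM replicate 2 was the library with high values for short genes. With the trend of gene length removed, a setting chosen after seeing the data, the ribosomal median was -0.25. That of oxidative phosphorylation was then -0.29, against -0.43 with the trend. The cause of these shifts was not tested.

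Several transcripts of the integrated stress response were lower. Ddit3, the proapoptotic factor CHOP, was at 29.9, 25.4 and 29.4 CPM in HCM and 172, 309 and 186 CPM in LCM (log2 difference -2.98 ± 0.27, edgeR adjusted p = 2.5e-09). Its target Trib3 was at 117, 113 and 99.6 CPM in HCM and 292, 344 and 321 CPM in LCM (log2 difference -1.54 ± 0.19, edgeR adjusted p = 4.4e-07). Atf4, the factor upstream of both, was lower, with a log2 difference of -0.79 ± 0.18 (edgeR adjusted p = 0.0014). Of 31 genes of the integrated and endoplasmic reticulum stress responses, 14 were called lower and 3 higher (median -0.28), and 10 and 1 held. Of 26 NRF2 targets 8 were lower and 4 higher (5 and 3 held), with the detoxifying enzymes Gsta4 and Nqo1 lower, with log2 differences of -1.71 ± 0.20 and -1.04 ± 0.20 and Mgst1 and the ferritin chain Fth1 higher by log2 differences of 1.32 ± 0.19 and 0.81 ± 0.14.

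Genes of the cell cycle were lower for 14 of 50 and higher for 1 (median -0.25), and 9 of the lower calls held. The replication genes Mcm2, Mcm5 and Pole were lower, with log2 differences of -0.63 ± 0.13, -0.64 ± 0.12 and -0.76 ± 0.15. In WT and PKP4-KO cells at 72 h and Rescue cells at 24 h 24, 32 and 24 of the 50 were lower, and in the test of the difference from WT 3 of the 50 were called higher and 0 [3, 2] lower. The difference from PKP4-KO was called higher for 15 and lower for 2 of the 50, and that from 24 h higher for 4 and lower for 0 [0, 0]. The higher counts against WT, PKP4-KO and 24 h were 2, 10 and 2 without LCM replicate 2. Cell cycle inhibitors and p53 targets gave 10 higher and 2 lower of 25 (median 0.34), of which 6 and 1 held. Trp53inp1, a p53-induced stress protein, was at 22.9, 24.3 and 31.4 CPM in HCM and 6.71, 2.14 and 3.41 CPM in LCM (log2 difference 2.65 ± 0.38, edgeR adjusted p = 6.5e-06). The BH3-only protein Pmaip1 and the death receptor Fas were higher by log2 differences of 1.75 ± 0.28 and 1.74 ± 0.22, and Cdkn2b, p15, by 1.15 ± 0.25. Sfn, 14-3-3 sigma, was lower, with a log2 difference of -1.21 ± 0.21 (edgeR adjusted p = 8.1e-05). The lower call of Cdkn1a, p21 (log2 difference -0.95 ± 0.27), was lost without LCM replicate 2 or HCM replicate 3, and the list had 6 higher calls and 1 lower call without LCM replicate 2.

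The YAP/TAZ list holds members of the pathway as well as targets. Its genes were called higher for 7 of 18 and lower for 3 (median 0.45), and 6 and 3 held. The kinase Lats2 and Amotl2, which both restrain YAP, were higher by log2 differences of 1.71 ± 0.22 and 1.42 ± 0.29 (edgeR adjusted p = 1.4e-06 and 4.9e-04). The TEAD factors Tead2, Tead3 and Tead4 were lower, with log2 differences of -1.21 ± 0.24, -0.64 and -0.76. Of 28 genes of ROCK, LIMK, cofilin and myosin, which set actomyosin tension, 5 were higher and 6 lower, of which 1 and 4 held. Cfl2, a cofilin, was higher by a log2 difference of 1.54 ± 0.15, and Limk1, which phosphorylates cofilins, Myh14, a non-muscle myosin, and Arhgef2, an activator of RhoA, were lower, with log2 differences of -1.19 ± 0.20, -1.21 ± 0.26 and -0.74 ± 0.14. The higher calls of the kinases Rock1 and Rock2 (log2 differences 1.52 ± 0.52 and 1.18 ± 0.41) were lost without LCM replicate 2, at 1.08 and 0.86 (edgeR adjusted p = 0.16 and 0.18), and the list then had 1 higher and 5 lower calls. Of 19 actins, tropomyosins and SRF targets 3 were higher and 6 lower (2 and 5 held), and of 20 Arp2/3 and WAVE genes 1 was higher and 2 lower (1 and 0 held). Of 17 Notch genes 5 were higher and 1 lower (2 and 1 held, and 2 and 2 were called without LCM replicate 2), namely Numb and Dtx4 among the higher (log2 differences 1.2 ± 0.24 and 1.32 ± 0.22). Of 22 genes of the TGF-beta and BMP response 2 were higher and 7 lower (1 and 6 held, and 1 and 6 were called without LCM replicate 2), among them Tgfbi (log2 difference -1.29 ± 0.13), and of 11 genes of epithelial-mesenchymal transition 0 [2, 0] were higher and 2 lower, and both lower calls held. Of 32 calcium handling genes 7 were higher and 6 lower (2 and 6 held, and 3 and 6 were called without LCM replicate 2), with the phospholipase Plcd1 and the channel Orai2 lower, with log2 differences of -1.85 ± 0.12 and -1.11 ± 0.13 and the calcineurin regulator Rcan1 higher by a log2 difference of 1.04 ± 0.11. Of 20 matrix proteases and inhibitors 3 were higher and 7 lower (1 and 6 held, and 1 and 8 were called without LCM replicate 2), with the urokinase Plau lower, with a log2 difference of -1.57 ± 0.30 and the inhibitor Timp2 higher by a log2 difference of 1.14 ± 0.22.

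The genes with the largest differences, by the rule given under processing, included members of these groups. Of the 15 that rose most, 7 were Lce1 genes and another was Krt10. Abhd12b, a lipid hydrolase-like gene, was read at 11, 9.50 and 12.8 CPM in HCM and 0, 0.0736 and 0.210 CPM in LCM, and its LCM libraries held 0, 1 and 4 counts, so the log2 difference of 6.88 ± 0.82 (edgeR adjusted p = 1.6e-06) is imprecise. Serpinb7, a serine protease inhibitor of the epidermis, was at 16.2, 15.4 and 25.4 CPM in HCM and 0.586, 0.368 and 0.315 CPM in LCM (log2 difference 5.42 ± 0.56, edgeR adjusted p = 3.0e-08). Arg1, the arginase that makes ornithine, was at 44.1, 43.4 and 47.2 CPM in HCM and 1.69, 0.884 and 1.47 CPM in LCM (log2 difference 5.02 ± 0.42, edgeR adjusted p = 8.6e-10). The rule admits only genes whose HCM and LCM libraries do not overlap. Tmprss11f, Krt90, Tlcd2 and H2-M9 rose by log2 differences of 4.75 ± 0.59, 4.68 ± 0.37, 4.56 ± 0.47 and 4.42 ± 0.51. Of the 15 that fell most, Odc1, the ornithine decarboxylase of polyamine synthesis, went from 1489, 1238 and 1685 CPM in LCM to 187, 191 and 261 CPM in HCM (log2 difference -2.79 ± 0.17, edgeR adjusted p = 4.0e-12). Pthlh, the parathyroid hormone-related protein that keratinocytes secrete, was at 1.76, 1.75 and 1.47 CPM in HCM and 11.6, 8.03 and 14.2 CPM in LCM (log2 difference -2.76 ± 0.22, edgeR adjusted p = 4.6e-10). Pla2g4d, a phospholipase of differentiated keratinocytes, was at 0.788, 0.428 and 0.523 CPM in HCM and 11.5, 8.84 and 10.2 CPM in LCM (log2 difference -4.13 ± 0.48, edgeR adjusted p = 2.5e-07). Tcf23, Nppb and Dmpk were lower, with log2 differences of -3.97 ± 0.48, -3.73 ± 0.42 and -2.63 ± 0.24. Mt2, a metallothionein, and Csta3 were called only with LCM replicate 2: without it their differences were -1.57 and -1.77 (edgeR adjusted p = 0.26 and 0.11).

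The response of Rescue cells at 72 h was set against that of WT and PKP4-KO cells at 72 h and of Rescue cells at 24 h, in the same model. The difference from WT was called for 2203 of 15114 genes (14.6%), 1029 higher (6.81%) and 1174 lower (7.77%). The difference from PKP4-KO was called for 4765 genes (31.5%), 2734 higher (18.1%) and 2031 lower (13.4%), and that from 24 h for 1896 (12.5%), 958 higher (6.34%) and 938 lower (6.21%). These splits also move with scaling. Without TMM the 3 sets of calls were higher in 74.8%, 91.4% and 60.8% of cases, against 46.7%, 57.4% and 50.5% with it, since leaving it out shifts the differences by 0.47, 0.83 and 0.17 on the log2 scale. Without LCM replicate 2 of the Rescue cells, 1414 genes were called for the difference from WT. The PKP4-KO libraries in HCM at 72 h carry TMM factors of 0.481 to 0.546, whereas all others lie between 0.705 and 1.39. The 3 differences share the Rescue libraries at 72 h and are not independent of each other.

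**Figure D4:**
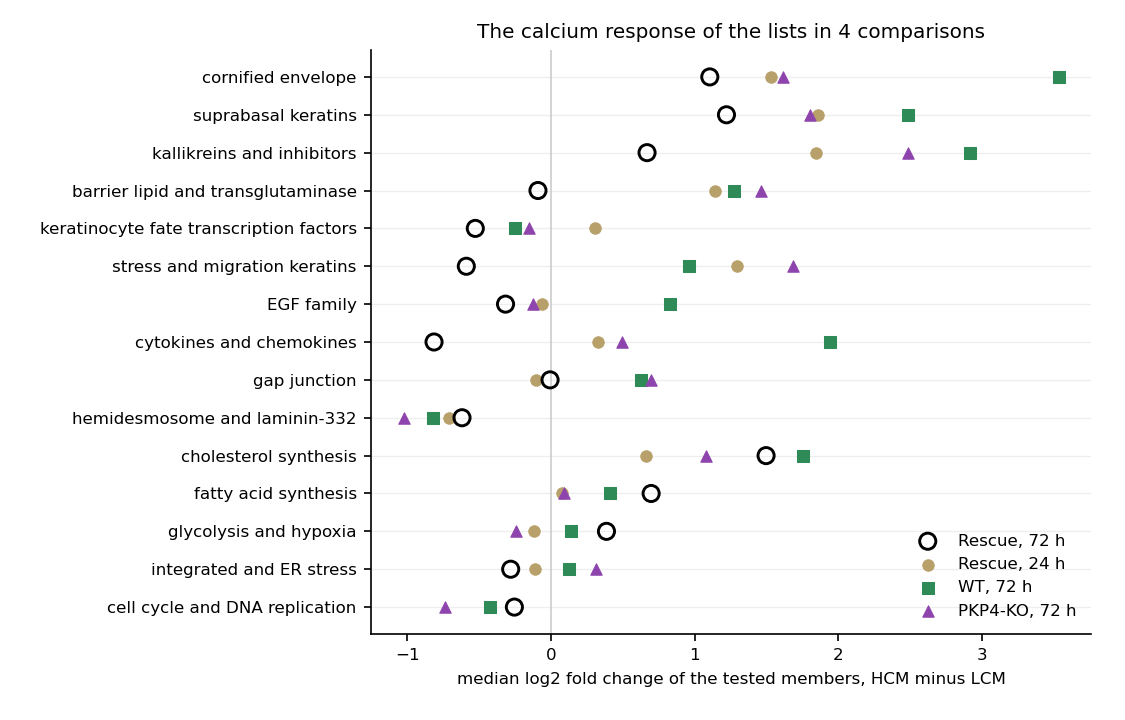
Median log2 difference (HCM minus LCM) of 15 gene lists in Rescue cells at 72 h (open circles), Rescue cells at 24 h, WT cells at 72 h (squares) and PKP4-KO cells at 72 h (triangles). Cytokines lie at -0.81 in Rescue cells at 72 h and at 1.94, 0.50 and 0.33 in WT, PKP4-KO and Rescue cells at 24 h.

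The levels behind these differences are set side by side here, LCM libraries included. Tgm1 averaged 74.4 ± 6.0 CPM in LCM and 93.6 ± 29.0 CPM in HCM in WT and 128 ± 25.4 CPM in LCM and 476 ± 113 CPM in HCM in PKP4-KO. It averaged 99.1 ± 7.10 CPM in LCM and 270.0 ± 38.1 CPM in HCM in Rescue cells at 24 h and 373 ± 47.3 CPM in LCM and 72.3 ± 4.63 CPM in HCM in Rescue cells at 72 h. Its log2 difference was 0.33 in WT, which was not called, and it rose by 1.90 in PKP4-KO and by 1.45 in Rescue cells at 24 h, on the log2 scale. It fell in Rescue cells at 72 h, where its LCM mean was the highest of the 4 settings. The differences of the responses were -2.70 ± 0.29 (edgeR adjusted p = 1.4e-07), -4.27 ± 0.29 (edgeR adjusted p = 5.4e-11) and -3.81 ± 0.29 (edgeR adjusted p = 4.2e-10). Alox12b, which rose with calcium in the other 3 settings, averaged 6.03 ± 1.11 CPM in LCM and 19.7 ± 6.74 CPM in HCM in WT and 39.6 ± 14.3 CPM in LCM and 138 ± 47.3 CPM in HCM in PKP4-KO. Its means were 16.5 ± 4.19 CPM in LCM and 49.9 ± 12.5 CPM in HCM in Rescue cells at 24 h and 147 ± 32.4 CPM in LCM and 23.7 ± 1.18 CPM in HCM in Rescue cells at 72 h. Its differences were -4.34 ± 0.40 (edgeR adjusted p = 1.2e-08), -4.44 ± 0.39 (edgeR adjusted p = 2.9e-09) and -4.22 ± 0.39 (edgeR adjusted p = 1.6e-08). Tgm3 averaged 225 ± 19.8 CPM in LCM and 56.5 ± 6.83 CPM in HCM in WT and 483 ± 22.6 CPM in LCM and 730.5 ± 88.7 CPM in HCM in PKP4-KO. Its means were 236 ± 46.7 CPM in LCM and 318 ± 53.5 CPM in HCM in Rescue cells at 24 h and 1037 ± 43.5 CPM in LCM and 125 ± 9.25 CPM in HCM in Rescue cells at 72 h. Here WT cells fell with calcium as well (log2 difference -2.0). The levels of the LCM groups were not tested against each other.

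**Figure D5:**
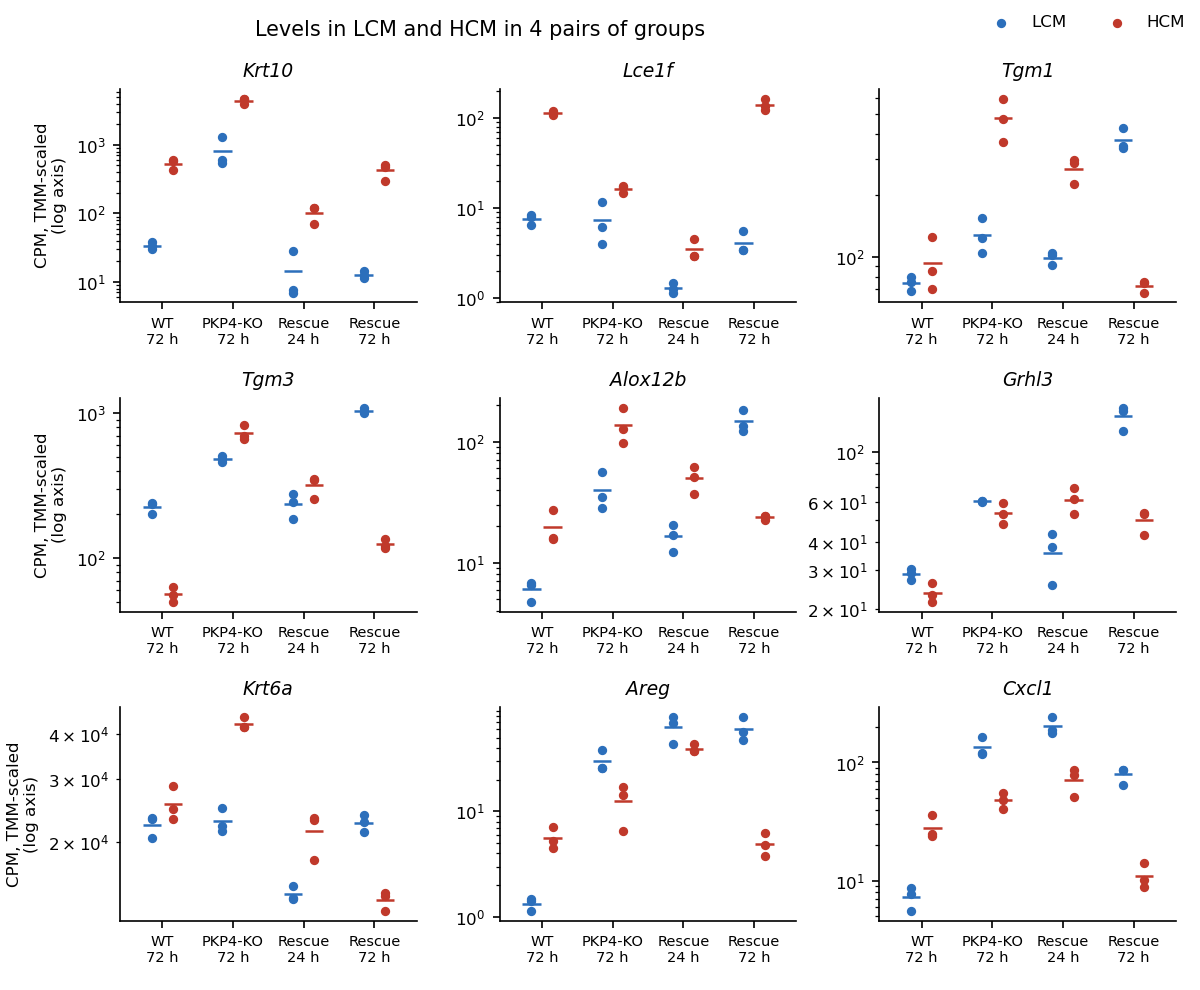
CPM of 9 genes in the 3 LCM (blue) and 3 HCM (red) libraries of WT and PKP4-KO cells at 72 h and of Rescue cells at 24 h and 72 h, on log axes, with a line at each mean. Krt10 and Lce1f are called higher in HCM in all 4 settings, while Alox12b is called higher in 3 and lower in Rescue cells at 72 h.

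Grhl3 averaged 28.6 ± 1.67 CPM in LCM and 23.6 ± 2.27 CPM in HCM in WT and 60.4 ± 0.238 CPM in LCM and 53.4 ± 5.85 CPM in HCM in PKP4-KO. Its means were 35.5 ± 9.0 CPM in LCM and 61.4 ± 8.04 CPM in HCM in Rescue cells at 24 h and 145 ± 18.0 CPM in LCM and 49.8 ± 6.12 CPM in HCM in Rescue cells at 72 h. The differences of the responses were -1.26 ± 0.28 (edgeR adjusted p = 0.0021), -1.36 ± 0.27 (edgeR adjusted p = 5.0e-04) and -2.33 ± 0.28 (edgeR adjusted p = 1.1e-06), and Grhl3, like Tgm1, had its highest LCM mean of the 4 settings in Rescue cells at 72 h. Krt10 went from 12.7 ± 1.43 to 424 ± 109.9 CPM in Rescue cells at 72 h, from 33.7 ± 4.11 to 533 ± 96.2 CPM in WT and from 817 ± 419 to 4437 ± 393 CPM in PKP4-KO. Its response was larger than in PKP4-KO by 2.62 ± 0.54 (edgeR adjusted p = 6.4e-04), and the difference from WT of 1.08 ± 0.54 (edgeR adjusted p = 0.16) was not called. For Lce1f the response was 5.13 at 72 h and 1.45 at 24 h in Rescue cells, a difference of 3.67 ± 0.42 (edgeR adjusted p = 5.2e-07).

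Among the secreted factors, Areg averaged 1.34 ± 0.175 CPM in LCM and 5.63 ± 1.32 CPM in HCM in WT and 60.9 ± 15.6 CPM in LCM and 4.92 ± 1.19 CPM in HCM in Rescue cells at 72 h, a difference of the responses of -5.71 ± 0.42 (edgeR adjusted p = 3.5e-10). Cxcl1 averaged 7.30 ± 1.59 CPM in LCM and 28.1 ± 6.53 CPM in HCM in WT and 79.3 ± 13.2 CPM in LCM and 11.1 ± 2.76 CPM in HCM in Rescue cells, a difference of -4.78 ± 0.37 (edgeR adjusted p = 8.1e-10). Both genes thus rose with calcium in WT and fell in Rescue cells. In PKP4-KO cells at 72 h both fell with calcium as well (-1.24 and -1.5), and the differences from PKP4-KO were -2.39 ± 0.39 (edgeR adjusted p = 3.9e-05) and -1.34 ± 0.35 (edgeR adjusted p = 0.0054). Gjb2 and Jup, with log2 differences of 0.62 and 0.07 in WT, had differences of the responses of -2.95 ± 0.29 (edgeR adjusted p = 5.0e-08) and -1.08 ± 0.28 (edgeR adjusted p = 0.0079).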

How the data were processed

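Poly(A) RNA of mouse keratinocytes was sequenced in 36 strand-specific libraries. According to the submitters' processing notes, reads were aligned with HISAT2 2.1.0 to mm39, to which the sequence of GFP-PKP4 had been joined, secondary alignments were removed with SAMtools 1.10, and genes were counted with featureCounts 2.0.0. The authors deposited raw counts per gene, not normalized, for 55358 genes in the 36 libraries. The strand setting of the counting is not given in the sources used here, so reads of overlapping antisense genes may not be separated. Mitochondrial genes are listed at 0 in all libraries and were left out.

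Groups were taken from the labels. All 36 libraries were fitted with 12 group means by edgeR's quasi-likelihood test (edgeR 4.0.16, R 4.3.3; filterByExpr, TMM, 24 residual degrees of freedom, Benjamini-Hochberg threshold 0.05), and the calcium effect and its 3 differences from other settings were contrasts. An SE is the log2 difference divided by the square root of F. DESeq2 1.42.0 was an alternative, beside 7 other settings and each library left out in turn. The scripts were tested on simulated data.

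The 40 gene lists by role, the 7 marker lists and the members were chosen with earlier results of these data known. Genes were also named by a rule: the 15 protein-coding genes with the largest difference in each direction among those called, with at least 10 CPM in the higher group and no overlap, and the 5 in each direction for each difference of responses. Of the listed genes, 121 were not tested for low counts. Some listed genes are counted but not reported singly here. No 2 libraries of a group agreed within sampling noise. Promoters were read from GRCm39 with the canonical starts of GENCODE M39.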

Additional observations from a re-analysis of the deposited data

Results flagged for a closer look

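The calcium response of Rescue cells at 72 h differed from that of other settings by a test of the difference itself, an interaction contrast in edgeR, for 2203 genes against WT cells at 72 h, 4765 against PKP4-KO cells at 72 h and 1896 against Rescue cells at 24 h. Groups of 3 libraries are too small for a test of single outlying libraries. The following values are differences of log2 differences, with the SE after ±, and no explanation of them was tested.

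The 5 largest positive differences from WT cells at 72 h were those of Glul, the glutamine synthetase, Cables1, a linker of CDK5 and ABL, Hspa1a, an inducible HSP70, the sestrin Sesn1 and Tlcd2, at 4.67 ± 0.52, 4.31 ± 0.51, 3.20 ± 0.57, 3.13 ± 0.43 and 3.06 ± 0.63 on the log2 scale (edgeR adjusted p from 2.8e-07 to 0.0012). Their log2 differences between HCM and LCM were 3.56, 2.20, 2.54, 0.86 and 4.56 in Rescue cells at 72 h and -1.11, -2.11, -0.66, -2.27 and 1.5 in WT cells at 72 h. The 5 largest negative ones were those of Defb14, a beta-defensin, Kcnip3, a calcium-binding regulator of potassium channels and transcription, Mt4, a metallothionein of stratified epithelia, Nppb, a natriuretic peptide, and Csf3, at -7.06 ± 1.70, -6.79 ± 0.80, -6.61 ± 1.47, -6.35 ± 0.64 and -6.28 ± 0.41 (edgeR adjusted p from 7.2e-11 to 0.0048), from -1.31, -0.41, -3.02, -3.73 and -3.73 in Rescue cells at 72 h and 5.74, 6.38, 3.59, 2.62 and 2.55 in WT cells at 72 h. The call of Defb14 was lost without LCM replicate 2 of the Rescue cells, at -4.65. Of 12 list members chosen with earlier results of these data known, 11 differed from WT cells at 72 h, against 14.6% of all genes tested. Since results of the same Rescue libraries were known, such a count is no test of the set. The differences were -2.70 for Tgm1, -1.06 for Tgm3, -4.34 for Alox12b, -1.26 for Grhl3, -0.91 for Krt6a, -2.95 for Gjb2, -5.71 for Areg, -4.78 for Cxcl1, -6.28 for Csf3, -3.01 for Ddit3 and -1.08 for Jup (edgeR adjusted p from 7.2e-11 to 0.0079).

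The 5 largest positive differences from PKP4-KO cells at 72 h were those of Serpinb6b, a serpin, Tmprss11f, a transmembrane serine protease, Gpsm1, a G-protein modulator, Abhd12b and Plcxd2, at 5.80 ± 1.68, 5.78 ± 1.28, 5.0 ± 0.58, 4.87 ± 1.13 and 4.73 ± 0.67 on the log2 scale (edgeR adjusted p from 2.7e-07 to 0.011). Their log2 differences between HCM and LCM were 1.37, 4.75, 3.29, 6.88 and 3.87 in Rescue cells at 72 h and -4.43, -1.03, -1.71, 2.01 and -0.87 in PKP4-KO cells at 72 h. The 5 largest negative ones were those of Cphx1, a homeobox gene, Mt4, Pycard, the inflammasome adaptor ASC, Clec2d, a C-type lectin, and Nppb, at -6.82 ± 2.03, -6.41 ± 1.51, -6.12 ± 0.71, -5.92 ± 1.87 and -5.66 ± 0.57 (edgeR adjusted p from 2.8e-08 to 0.018), from -3.02, -3.02, -3.06, -3.04 and -3.73 in Rescue cells at 72 h and 3.80, 3.39, 3.05, 2.88 and 1.93 in PKP4-KO cells at 72 h. Serpinb6b was at 0 counts in the PKP4-KO HCM libraries and Cphx1 at 0 in the Rescue HCM libraries, with 2, 0 and 1 counts in LCM, so their fitted values depend on the prior count and give no fold. The call of Clec2d was lost without LCM replicate 2 of the Rescue cells, at -3.17 (edgeR adjusted p = 0.22), and without PKP4-KO LCM replicate 3. That of Serpinb6b was lost without PKP4-KO LCM replicate 3, and that of Cphx1 without LCM replicate 1 of the Rescue cells. Of the same 12 list members, which were chosen with earlier results known, 12 differed from PKP4-KO cells at 72 h, against 31.5% of all genes tested. The differences were -4.27 for Tgm1, -3.65 for Tgm3, -4.44 for Alox12b, -1.36 for Grhl3, -1.62 for Krt6a, 2.62 for Krt10, -4.19 for Gjb2, -2.39 for Areg, -1.34 for Cxcl1, -2.41 for Csf3, -4.39 for Ddit3 and -1.89 for Jup (edgeR adjusted p from 5.4e-11 to 0.0054).

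The 5 largest positive differences from Rescue cells at 24 h were those of Lce1g, Gpnmb, a melanosomal and lysosomal glycoprotein, Lnx1, a ubiquitin ligase that binds Numb, Lce1f and Gpsm1, at 4.35 ± 0.52, 4.34 ± 0.60, 4.18 ± 0.86, 3.67 ± 0.42 and 3.64 ± 0.42 on the log2 scale (edgeR adjusted p from 5.2e-07 to 0.0012). Their log2 differences between HCM and LCM were 4.87, 2.74, 4.39, 5.13 and 3.29 in Rescue cells at 72 h and 0.52, -1.60, 0.21, 1.45 and -0.35 in Rescue cells at 24 h. The 5 largest negative ones were those of Kcnip3, the alarmin Il33, the phospholipase Pla2g4d, Tcf23 and Alox12b, at -6.69 ± 0.82, -5.48 ± 0.33, -5.46 ± 0.68, -4.35 ± 0.64 and -4.22 ± 0.39 (edgeR adjusted p from 1.0e-11 to 2.2e-05), from -0.41, -2.21, -4.13, -3.97 and -2.63 in Rescue cells at 72 h and 6.28, 3.26, 1.33, 0.38 and 1.59 in Rescue cells at 24 h. In Rescue cells at 24 h Kcnip3 averaged 0.148 CPM in LCM, and Lnx1 0.375 CPM in HCM and 0.316 CPM in LCM. These levels lie near the floor of 3 counts, so the log2 differences of both genes at 24 h are imprecise. Of the same 12 list members, which were chosen with earlier results known, 12 differed from Rescue cells at 24 h, against 12.5% of all genes tested. The differences were -3.81 for Tgm1, -3.49 for Tgm3, -4.22 for Alox12b, -2.33 for Grhl3, -1.30 for Krt6a, 2.21 for Krt10, -2.16 for Gjb2, -2.94 for Areg, -1.34 for Cxcl1, -1.99 for Csf3, -2.84 for Ddit3 and -1.49 for Jup (edgeR adjusted p from 4.2e-10 to 0.01). The call of Krt10 was lost without Rescue 24 h LCM replicate 3, and its lowest value when a library was left out was 1.24.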

How the results depend on the processing

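The count of 3769 genes called between HCM and LCM was 4364 with DESeq2, 2702 without TMM, 2876 without a filter on low counts, 3164 with at least 10 counts in every library, 2651 with only the groups compared in the fit and, chosen after seeing the data, 4464 with the trend of gene length removed. Leaving out each library in turn gave 2770 to 3813 calls here, 1414 to 3196 for the difference from WT (1414 without LCM replicate 2 of the Rescue cells), 3198 to 5764 for that from PKP4-KO and 1428 to 1927 for that from 24 h. Without TMM the difference from PKP4-KO was called for 7353 genes. Deviations of same-numbered HCM and LCM libraries from their group means correlated at -0.15, -0.19 and 0.048. These values cannot decide whether replicate numbers pair the samples, because the LCM deviations are set mainly by replicate 2. Its deviations correlated with those of LCM replicates 1 and 3 at -0.925 and -0.775. The replicate block gave 3680 calls over all 36 libraries. Over only the groups compared it gave 1165 for the calcium effect and 1182 for the difference from WT, against 2651 and 1765 without the block on the same libraries and genes, and 109 of 335 values of single genes lost their call. The cause was not tested. The HCM minus LCM difference of GFP-PKP4 was -115 CPM and ran from -154 (without LCM replicate 2) to -39.5 (without LCM replicate 1) over the settings tried. The shift without LCM replicate 1 was larger than the HCM SD of 48.1 and smaller than the LCM SD of 131. That of Pkp4 was 0.610 CPM and ran from -0.610 (without HCM replicate 1) to 1.63, so its sign is not settled.

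Single genes gave 4623 values over all settings, of which 4220 kept their direction and side of the threshold, 371 lost and 32 gained a call, and 0 called values changed sign. With 3 libraries a group, LCM replicate 2 weighs on list medians: the ribosomal median was -0.36 with it and 0.12 without it, and that of the S100 genes -0.44 and 0.79.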
